A study of Homo sapiens with 70 samples.

Results

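The shared doxycycline response is the change in RNA level 1 day after doxycycline (DOX) was given, fitted as 1 value over 3 guide RNAs. It averages over the guides, so a gene can pass its test without changing in each of them. It was measured in 17 of the 70 libraries of the series: 9 with DOX and 8 with the solvent DMSO. All came from MIA PaCa-2, an established human line of pancreatic ductal adenocarcinoma, in a form resistant to the K-Ras inhibitor sotorasib. All groups carry inducible dCas9-KRAB, a cutting-dead Cas9 fused to a KRAB repressor domain, which DOX switches on. The guides are sgZBTB11 #1 and sgZBTB11 #2, which direct dCas9-KRAB to ZBTB11, a zinc finger transcription factor, and sgNS, the control guide. At day 1 each guide had 3 DMSO and 3 DOX libraries, except sgNS with DMSO, which had 2. The series also holds 18 libraries from 5 hr, 18 from day 3 and 17 from day 5. The drug and the induced dCas9-KRAB protein cannot be told apart, because no group received DOX without carrying dCas9-KRAB. Nothing in the labels says whether libraries of a group are separate cultures or whether a guide line is 1 clone, so p-values reflect only how far these libraries vary, and that variation may be technical.

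Doxycycline is a tetracycline, a class of drugs that bind bacterial ribosomes and also slow protein synthesis inside mitochondria, whose ribosomes descend from bacteria. KRAB domains recruit TRIM28 (KAP1) and histone-modifying enzymes, which silence the gene they are brought to. An inducible CRISPR interference line given DOX can therefore differ from its DMSO control through the drug, the fusion protein, or the guide's own target.

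Poly(A) RNA gave 13852805 to 16724022 counts per day 1 library. Library sgZBTB11 #2 DMSO replicate 2 stood apart: when its counts were compared with those of its 2 group mates, chi-square over its degrees of freedom was 4.93 and 3.96, against 1.37 to 2.37 for the other pairs within groups. The labelled pancreatic ductal origin was met in part. KRT8, KRT18, KRT19 and SOX9 were expressed, but CDH1, EPCAM and KRT7 did not pass 0.194 CPM (counts-per-million, TMM-scaled) in any library, and the mesenchymal marker VIM lay between 4679 and 6165 CPM. Of markers of other cell types, all 4 islet genes were at 0, the 5 acinar genes summed to at most 0.127 CPM, and CD3E, LYZ, PTPRC and KDR were at 0. Other such markers were expressed. The fibroblast markers COL1A2 and COL3A1 read 375 to 427 CPM and 15.8 to 38.5 CPM. The immune marker CD68 read 4.97 to 11.2 CPM and the endothelial marker CDH5 3.38 to 8.71 CPM. In bulk RNA, fewer cells of a type and less RNA per cell cannot be told apart.

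Across 16275 genes tested, DOX changed many genes by little. By edgeR's quasi-likelihood test with guide as covariate, 2635 genes (16.2%) passed an adjusted p of 0.05, 1136 higher (6.98%) and 1499 lower (9.21%). The median change was 0.15 on the log2 scale among those higher and −0.12 among those lower. Only 67 genes changed by at least 0.5 on the log2 scale, of which 50 rose and 17 fell. Of the 2635, 2536 had the same sign in all 3 guides (15.6% of genes tested), and 1203 did not pass the threshold in any guide alone. Without sgZBTB11 #2 DMSO replicate 2, 2389 genes passed, 997 higher and 1392 lower, and 84.1% of the original calls were kept. The split between directions depended on the input and test: 43.11% of calls were higher here and 41.94% with RLE scaling, against 66.14% of 1320 calls with limma on the deposited TPM plus 1, which changes input, filter, scaling and test together. Against a minimum change of 0.1 on the log2 scale, 267 genes passed, 112 higher and 155 lower.

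Of the 18 called genes with a log2 change of at least 1 in either direction, 3 had a mean of at least 5 CPM and 1 sign in all guides, and the 15 largest increases and decreases were taken from genes that meet both conditions. Among them CENPT rose most (ENSG00000102901.13, chromosome 16, 67828157 to 67847693). It encodes an inner kinetochore protein that ties centromeric chromatin to the outer kinetochore. It stood at 93.7, 90.1 and 96.9 CPM in the DMSO libraries of sgZBTB11 #1 and at 315, 324 and 311 CPM with DOX. With sgZBTB11 #2 it was 102, 98.6 and 108 CPM in DMSO and 313, 303 and 304 CPM with DOX. With sgNS it was 90.7 and 98.8 CPM in DMSO and 238, 250 and 263 CPM with DOX. No DOX library came near any DMSO library, and the shared change was 3.03-fold (log2 1.60, SE 0.045, adjusted p = 7.22e-12 by edgeR). The 3 sgNS libraries with DOX lay below all 6 DOX libraries of the ZBTB11 guides.

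Under the same conditions the gene that fell most was THAP11 (ENSG00000168286.3, chromosome 16, 67842320 to 67844195), a transcription factor that acts with the cofactor HCFC1 at promoters. In sgZBTB11 #1 it read 31.7, 31.3 and 32.4 CPM with DMSO and 14.9, 13.4 and 14.7 CPM with DOX. In sgZBTB11 #2 it read 27.6, 30.7 and 30.1 CPM with DMSO and 17.5, 17.4 and 16.2 CPM with DOX. In sgNS it read 27.9 and 28.8 CPM with DMSO and 15.7, 14 and 15 CPM with DOX. The groups did not overlap in any guide, and the shared change was −48.4% (log2 −0.95, SE 0.046, adjusted p = 1.16e-18 by edgeR). THAP11 lies inside the span of CENPT on the opposite strand. The strand setting of the counting is not given in the sources used here, so reads of one cannot be told apart from reads of the other.

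SLC25A36, which carries pyrimidine nucleotides across the inner mitochondrial membrane (chromosome 3, 140941836 to 140980995), rose in every guide. Its levels were 79.9, 81.8 and 72.9 CPM in DMSO and 130, 130 and 124 CPM in DOX with sgZBTB11 #1, and 72.9, 63.9 and 70.6 against 120, 115 and 122 CPM with sgZBTB11 #2. With sgNS they were 66.9 and 61.9 CPM against 99, 102 and 98.3 CPM. The groups were again apart in each guide, with a shared rise of 64.4% (log2 0.72, SE 0.029, adjusted p = 3.86e-19 by edgeR).

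FBXL19-AS1 (ENSG00000260852.2, chromosome 16, 30919319 to 30923269), a noncoding RNA that runs away from the F-box gene FBXL19, rose in each guide. It stood at 29.2 to 32.7 CPM (median 31.6) in the 8 DMSO libraries and at 54.2 to 73.7 CPM (median 68.4) in the 9 DOX libraries, 2.12-fold higher (log2 1.08, SE 0.039, adjusted p = 1.16e-18 by edgeR). The log2 change of FBXL19 itself was 0.05 (SE 0.029, adjusted p = 0.323). As with CENPT and THAP11, reads of this pair were assigned with a strand setting that is not known here.

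Behind these came genes of smaller level. UBXN8, an endoplasmic reticulum protein that binds the ATPase p97, rose from a median of 11.5 CPM (9.34 to 13.1) to 21.1 CPM (18.8 to 22.8), with a log2 change of 0.87. TRMT10A, a tRNA methyltransferase, rose from a median of 4.34 CPM (3.50 to 5.03) to 7.63 CPM (6.27 to 9.46), with a log2 change of 0.80. ENSG00000233461, a gene with no symbol in the tables used, rose from a median of 4.04 CPM to 8.64 CPM, with a log2 change of 1.05. In all 3 the lowest DOX library lay above the highest DMSO library. The rest of the 15 largest increases ran from a log2 change of 0.56 to 0.42. They were RABL3, a Rab-like GTPase, ALG14, a subunit of an enzyme of N-glycan precursor synthesis, TTC33, AGPAT4, an acyltransferase of phospholipid synthesis, SMIM30, MTRF1, a mitochondrial translation release factor, TFPT, a subunit of the INO80 chromatin remodeller, PAFAH2 and the immediate early factor EGR2.

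**Figure D1:**
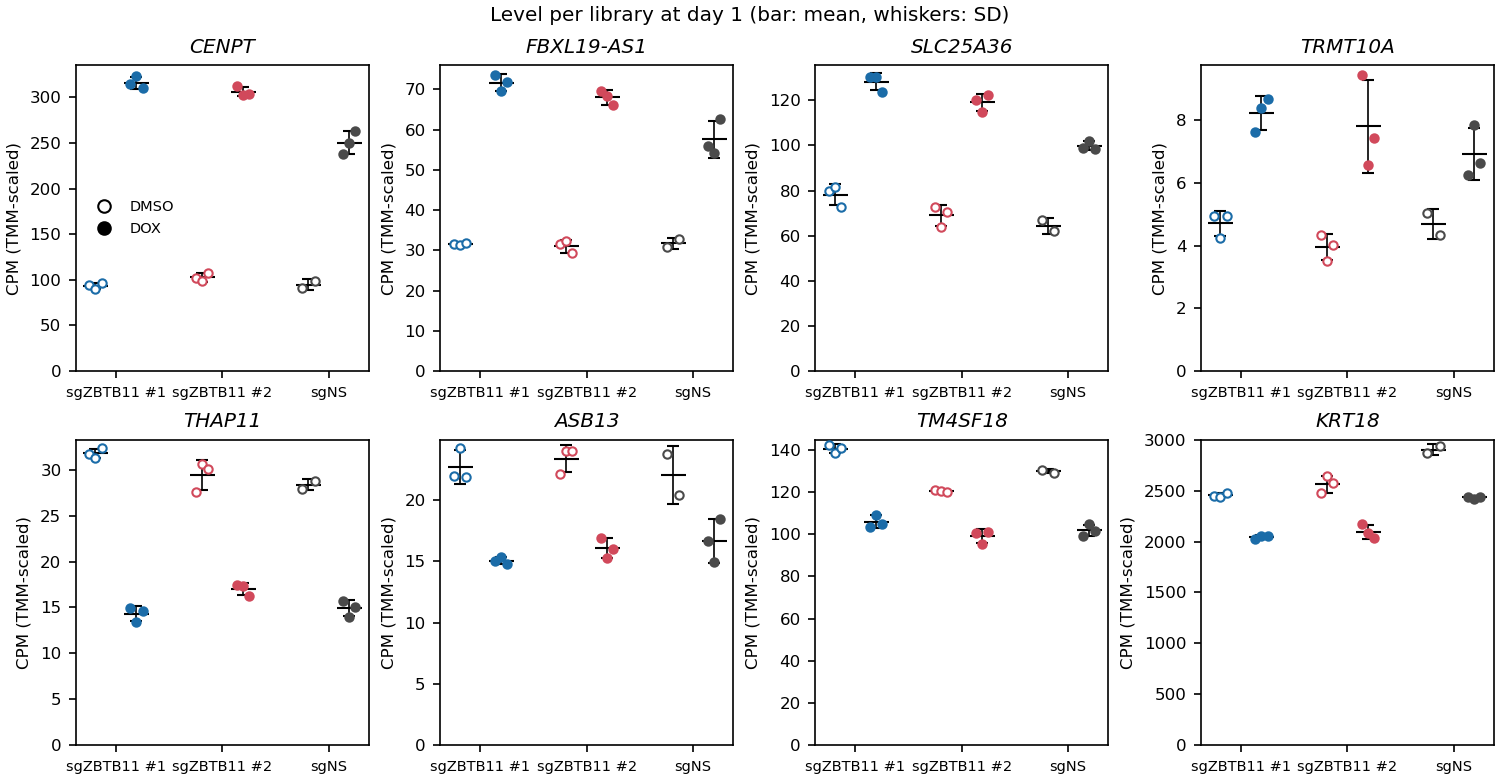
Level of 8 genes in each of the 17 day 1 libraries, in TMM-scaled CPM on a linear axis from 0. Open circles are DMSO and filled circles DOX libraries, bars are group means and whiskers SD (n = 3, or 2 for sgNS with DMSO); in CENPT, FBXL19-AS1, SLC25A36, TRMT10A, THAP11, ASB13, TM4SF18 and KRT18 the DOX and DMSO libraries did not overlap within any guide.

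The 15 largest decreases include TNFRSF6B, a decoy receptor for death ligands, PLAUR, the urokinase receptor, SHH, the hedgehog ligand, CDH5 (VE-cadherin), NRP2, the calcium channel subunit CACNG4, PRND and TM4SF18. TM4SF18 read 120 to 142 CPM (median 130) in DMSO and 95.5 to 109 CPM (median 102) in DOX. SHH read 26.2 to 35.9 CPM (median 31.2) in DMSO and 20.3 to 29.6 CPM (median 25) in DOX. TM4SF18 did not overlap between treatments, while the ranges of SHH did overlap across guides although every DOX library lay below the mean of its own guide's DMSO libraries. TNFRSF6B fell by 25.2% (log2 −0.42), but it shares exons with a readthrough transcript of RTEL1, so its counts are uncertain. CDH5 marks endothelium, and its fall of 28.5% came with the other 3 endothelial markers at 0.249 CPM or less in every library.

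ASB13, a substrate receptor of a ubiquitin ligase, and SGF29, a histone-reading subunit of the SAGA coactivator, fell by similar amounts. ASB13 read 20.4 to 24.2 CPM (median 22.9) in DMSO and 14.8 to 18.5 CPM (median 15.3) in DOX, a log2 change of −0.52 (SE 0.047, adjusted p = 7.83e-11 by edgeR). SGF29 read 7.53 to 9.44 CPM (median 8.54) in DMSO and 5.11 to 6.89 CPM (median 5.97) in DOX, a log2 change of −0.52 (SE 0.07, adjusted p = 8.99e-07 by edgeR). For both genes the highest DOX library lay under the lowest DMSO library. The remaining decreases were AKR1C2, an aldo-keto reductase whose reads are shared with close paralogs, the zinc finger gene ZNF358, and ENSG00000299701 and ENSG00000297244, which have no symbol here.

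All 15 increases and all 15 decreases had the same sign in each guide, which the rule for naming them required. Of the increases 12 passed the threshold with sgZBTB11 #1 alone, 15 with sgZBTB11 #2 and 12 with sgNS, and of the decreases 11, 12 and 9. The libraries of the 2 treatments did not overlap in any of the 3 guides for 14 of the 15 increases and 11 of the 15 decreases. Over all genes that held for 1.59% (259) in the upward and 3.13% (510) in the downward direction. ALG14, CACNG4, ENSG00000299701 and NRP2 lost their call under at least 1 alternative, and the other 26 kept it under all 30 tried.

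**Figure D2:**
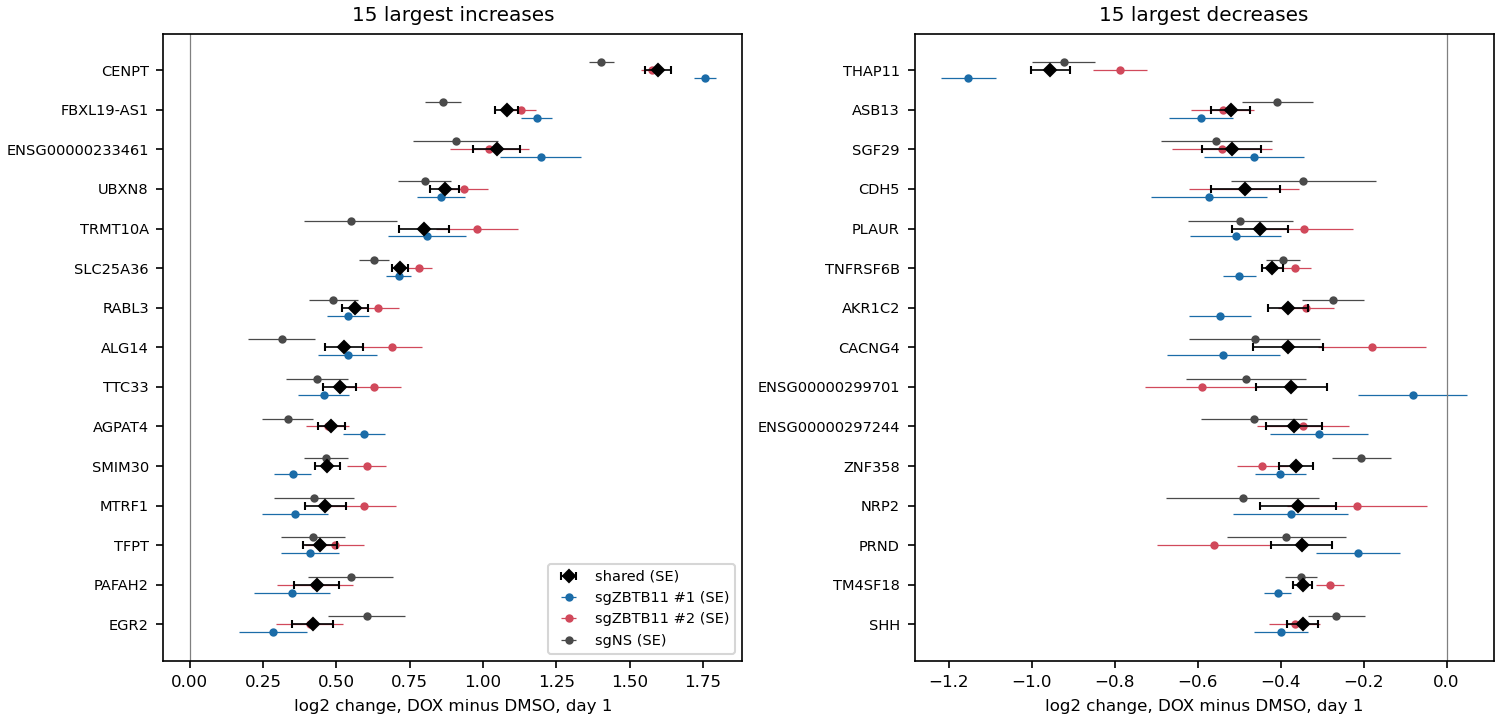
Log2 change (DOX minus DMSO, day 1) of the 15 largest increases and 15 largest decreases. Black diamonds are the shared change and coloured circles the change in each guide, with SE as bars; CENPT stands furthest to the right at 1.60 and THAP11 furthest to the left at −0.95, and the guides lie on the same side of 0 for all 30.

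Because THAP11 was among these genes, the promoters of the 30 were searched for the element that ZNF143, THAP11 and HCFC1 share, a 12-base motif read on both strands. Windows ran from 250 bases before to 50 bases after each RefSeq start (GRCh38.p14). A match stood in 3 of the 13 increases with a window (FBXL19-AS1, SMIM30 and PAFAH2) and in 2 of the 11 decreases (ASB13 and SGF29). The promoters of CENPT and FBXL19-AS1, which rose most among the 30, are shown upstream of their exons, followed by 30 bases around each other match, 5′ to 3′ on the gene's strand, with the match in capitals. CENPT has no match in its window, and the FBXL19-AS1 match lies on the other strand, which is the strand of FBXL19, in the promoter that the 2 genes share.
CENPT, chr16:67847812-67847943, minus strand: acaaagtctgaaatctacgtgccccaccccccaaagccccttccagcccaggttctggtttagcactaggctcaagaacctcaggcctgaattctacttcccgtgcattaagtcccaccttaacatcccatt
FBXL19-AS1, chr16:30923270-30923519, minus strand: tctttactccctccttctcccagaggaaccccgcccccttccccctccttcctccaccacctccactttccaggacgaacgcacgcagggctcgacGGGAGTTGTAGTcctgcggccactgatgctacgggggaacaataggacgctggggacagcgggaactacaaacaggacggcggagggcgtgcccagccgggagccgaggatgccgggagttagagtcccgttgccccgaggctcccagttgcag
SMIM30, chr7:113118569-113118598, minus strand: agggattgtGGGAAATGTAGTttggagact
PAFAH2, chr1:25998163-25998192, minus strand: ctgtacatcGGGAATTGTAGTtctagattg
ASB13, chr10:5666661-5666690, minus strand: gcggcgggaACTACAACTCCCggctcggtc
SGF29, chr16:28553848-28553877, plus strand: caagtgaaaACTACATTTCCCacggggcag

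The same motif stood in 1.13% of all 35116 promoter windows and in 2.91% of the 10948 windows of genes tested. It was in 55 of 916 windows of genes that rose (6.0%), in 43 of 1190 of genes that fell (3.61%) and in 221 of 8842 of genes that passed in neither direction (2.50%). The element was chosen with the fall of THAP11 known, and a match is a description of letters, not of binding. HCFC1 fell by 7.30% (log2 −0.11, SE 0.022, adjusted p = 0.000335 by edgeR), a call lost with limma on TPM. Of 14 tested genes of a list of THAP11, HCFC1 and cobalamin metabolism, THAP11, MMACHC, HCFC1 and CD320 fell (28.6%) and MMADHC rose (7.14%). Over all genes 9.21% fell and 6.98% rose, so the higher count is near the background. The list median was 0.00 on the log2 scale. MMACHC lost its call in 4 of 30 alternatives and MMADHC in 2.

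Besides the leading genes, members of several lists of growth-related genes fell by small amounts. In a MYC list of 28 tested genes, 16 fell and 1 rose, with a median log2 change of −0.09 against 0.01 over all genes (6.98% higher and 9.21% lower). MYC read 210 to 258 CPM (median 234) in DMSO and 183 to 242 CPM (median 220) in DOX, a log2 change of −0.15 (SE 0.022, adjusted p = 4.39e-06 by edgeR). The ribosome assembly factors NOP56 (log2 −0.17) and BOP1 (−0.20) and the pyrimidine synthesis enzyme CAD (−0.17) fell with it. These ranges overlapped between treatments for MYC and BOP1, but all 9 DOX libraries lay below their own guide's DMSO mean for each of these genes.

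Of 23 small nucleolar RNA host genes, whose introns carry the guides for ribosomal RNA modification, 16 fell (69.6%) and 1 rose (4.35%). Their median change was −0.12, and over all genes 9.21% fell and 6.98% rose. SNHG12 (−0.22), SNHG17 (−0.20) and SNHG1 (−0.12) were among the host genes that fell. Of 79 cytosolic ribosomal protein genes 36 fell (45.6%) and 2 had a positive change, with a median of −0.06. RPLP0 read 1629 to 1867 CPM in DMSO and 1512 to 1778 CPM in DOX (log2 −0.11), and RPS2 fell by 6.64%. Without sgZBTB11 #2 DMSO replicate 2 the lower counts were 16 for the MYC list, 14 for the host genes and 32 for the ribosomal proteins. Over all 16231 genes tested without that library, 1392 were lower.

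Per library the 79 ribosomal protein genes took 9.20% ± 0.072 of counts in DMSO and 8.996% ± 0.10 in DOX with sgZBTB11 #1 (SD, n = 3 each). They took 9.10% ± 0.39 and 8.85% ± 0.17 with sgZBTB11 #2 (n = 3 each), and 9.68% ± 0.033 (n = 2) and 9.56% ± 0.22 (n = 3) with sgNS. The mean difference over guides was −0.193 percentage points, which missed the threshold after adjustment over 3 shares (p = 0.04825, adjusted p = 0.145, two-sided exact permutation test within guides, smallest possible p 0.00025). The sum over these genes, as a share, was thus not shown to differ, although 36 of them passed singly.

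Many genes for mitochondrial protein synthesis fell, and a few rose, beside 9.21% lower and 6.98% higher over all genes. In the small subunit of the mitochondrial ribosome 14 of 32 fell (median −0.06), and in the large subunit 15 of 49 fell and 2 rose (median −0.04). MRPS2 (log2 −0.18), MRPS26 (−0.18), MRPS34 (−0.19) and MRPL12 (−0.13) fell, whereas MRPL24 rose from a median of 66.3 CPM to 82.3 CPM (log2 0.28, SE 0.027, adjusted p = 4.62e-10 by edgeR). Of 60 factors of mitochondrial DNA expression and translation 12 fell, among them TUFM, the mitochondrial elongation factor (−0.13), and TBRG4 (−0.21), and 3 rose, of which the release factor MTRF1 rose most (0.46).

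Mitochondrial chaperones and proteases held a larger share of lower calls than all genes. Of 18 tested, 8 fell (44.4%, beside 9.21%) and 2 rose (11.1%, beside 6.98%), with a median of −0.05. The higher count, of 2 genes, is no result about the list. HTRA2, an intermembrane space protease, rose from a median of 38.8 CPM (34.2 to 43.4) to 50.8 CPM (45.2 to 56.1), a log2 change of 0.35. CLPB, a disaggregase of the same space, rose from 30.3 CPM (26.7 to 33) to 36.4 CPM (35.2 to 39.3), a log2 change of 0.29. Both sets of DOX libraries lay above all DMSO libraries, while the chaperone TRAP1 (−0.15) and the processing peptidase PMPCA (−0.12) fell. Of the 13 mRNAs made from mitochondrial DNA, MT-ATP6 rose (0.12) and MT-ND1 fell (−0.07). The call of MT-ND1 was lost in 8 of 30 alternatives, among them leaving out sgZBTB11 #1 DOX replicate 3, sgZBTB11 #2 DMSO replicate 2 or sgNS DMSO replicate 2 (adjusted p up to 0.363 over all 30). The 37 mitochondrial genes together took 0.167 percentage points more of the counts with DOX (adjusted p = 0.161, exact permutation test), with shares of 10.2% (DMSO) and 10.0% (DOX) for sgZBTB11 #1, 10.4% and 10.8% for sgZBTB11 #2, and 12.3% and 12.5% for sgNS. Nuclear subunits of complex I (5 of 37 lower, 13.5%, and 2 higher, 5.41%) and of complexes II to V (5 of 41 lower, 12.2%, and 1 higher, 2.44%, with CYC1 at −0.12) lay near the 9.21% lower and 6.98% higher of all genes, which is no result about them.

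Of 47 genes of DNA replication and S phase 18 fell and 1 rose (median −0.05). GINS4 fell from a median of 300 CPM (272 to 335) to 246 CPM (226 to 279), a log2 change of −0.28 (SE 0.017, adjusted p = 2.94e-15 by edgeR). GINS3, a partner of GINS4 in the replicative helicase, rose from 32.6 CPM (26.6 to 37.2) to 39.2 CPM (33.9 to 49), a log2 change of 0.29. The licensing factor CDT1 (−0.23) and the helicase subunit MCM7 (−0.19) fell. Of 40 genes of G2 and mitosis 6 rose (15%) and 4 fell (10%), and of 36 kinetochore genes 3 rose, CENPT among them (8.33%), and 4 fell (11.1%). Beside the 6.98% and 9.21% of all genes, the kinetochore counts and the lower count of G2 and mitosis are near the background.

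Among metabolic and stress genes the changes were mixed, beside 6.98% higher and 9.21% lower over all genes. Of 36 glycolysis and hypoxia genes 11 fell (30.6%) and 7 rose (19.4%). ALDOA (−0.16), ENO1 (−0.16) and GAPDH (−0.13) fell, and PKM rose from a median of 1311 CPM to 1479.7 CPM (log2 0.17, SE 0.016, adjusted p = 1.35e-10 by edgeR). Of 37 ATF4 targets and regulators, which report the integrated stress response, 6 fell (16.2%) and 2 rose (5.41%), with a list median of −0.01. The tryptophanyl-tRNA synthetase gene WARS1 fell most, from a median of 592 CPM (560 to 619) to 500 CPM (464 to 521). ATF4 (−0.12), SLC7A5 (−0.14) and PYCR1 (−0.16) fell too. Of 19 iron and metal genes 8 fell (42.1%), including ferritin light chain FTL (−0.14), the transferrin receptor TFRC (−0.16) and the metallothionein MT2A (−0.20). Of 23 NRF2 targets 7 fell (30.4%) and 2 rose (8.7%), with NQO1 at −0.13 and TKT at −0.13. The higher counts of the ATF4 and NRF2 lists are near the background.

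Signalling genes also divided, beside 6.98% higher and 9.21% lower over all genes. Of 24 immediate early genes 6 rose (25%): EGR1, EGR2, EGR3, EGR4, FOSB and NR4A1, from 0.09 to 0.42 on the log2 scale. The list median was −0.005 with sgZBTB11 #1, 0.097 with sgZBTB11 #2 and 0.076 with sgNS. EGR3 read 16.2 to 27.7 CPM (median 24.4) in DMSO and 22.8 to 35 CPM (median 29.9) in DOX. In a list of RAS-MAPK output and feedback 6 of 27 fell (22.2%) and 3 rose (11.1%), with a median of −0.01. The inhibitors DUSP7 (−0.29) and SPRY4 (−0.18) were among those that fell. In an NF-kB list of 22, 5 fell (22.7%) and 1 rose (4.55%), with the inhibitor NFKBIA at −0.20 and the chemokine CXCL1 at −0.25. The higher counts of the RAS-MAPK and NF-kB lists are near the background. The epithelial keratins KRT8 (2388 to 2757 CPM in DMSO, 1969.8 to 2325 CPM in DOX), KRT18 and KRT19 fell, by a percent change of −16.1%, −17.1% and −15.3%, and passed the threshold in each guide.

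Genes of KRAB repression are of interest here because all cells carry a KRAB fusion. Of 73 KRAB zinc finger genes 11 rose (15.1%) and 2 fell (2.74%), beside 6.98% and 9.21% of all genes, with a median of 0.04. ZNF227 (0.39), ZNF37A (0.22) and ZNF133 (0.18) were among those that rose. With the trend in GC content described below removed, 8 of the list rose and 2 fell, with a median of 0.03. Over all genes 5.5% rose and 7.51% fell with that trend removed. In a list of 28 genes of the KRAB repression machinery 4 rose (14.3%) and 6 fell (21.4%), against 3 and 3 with that trend removed. TRIM28, the corepressor that KRAB domains bind, fell by 6.90% and HDAC1 fell by 6.37%, while ATF7IP rose (0.09). The call of ATF7IP was lost with the trend removed (adjusted p = 0.137 by edgeR). ZNF10, the gene whose KRAB domain is used in many dCas9-KRAB constructs, rose from a median of 10.5 CPM (6.48 to 13.3) to 13.7 CPM (11.5 to 15.7), a log2 change of 0.38 (SE 0.064, adjusted p = 5.68e-05 by edgeR). Its change was larger on the deposited TPM, which divides by the estimated transcript length: 1.24 on log2(TPM + 1) and 1.46 on log2(TPM + 0.1). Whether reads of the construct are counted under ZNF10 was not tested.

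**Figure D3:**
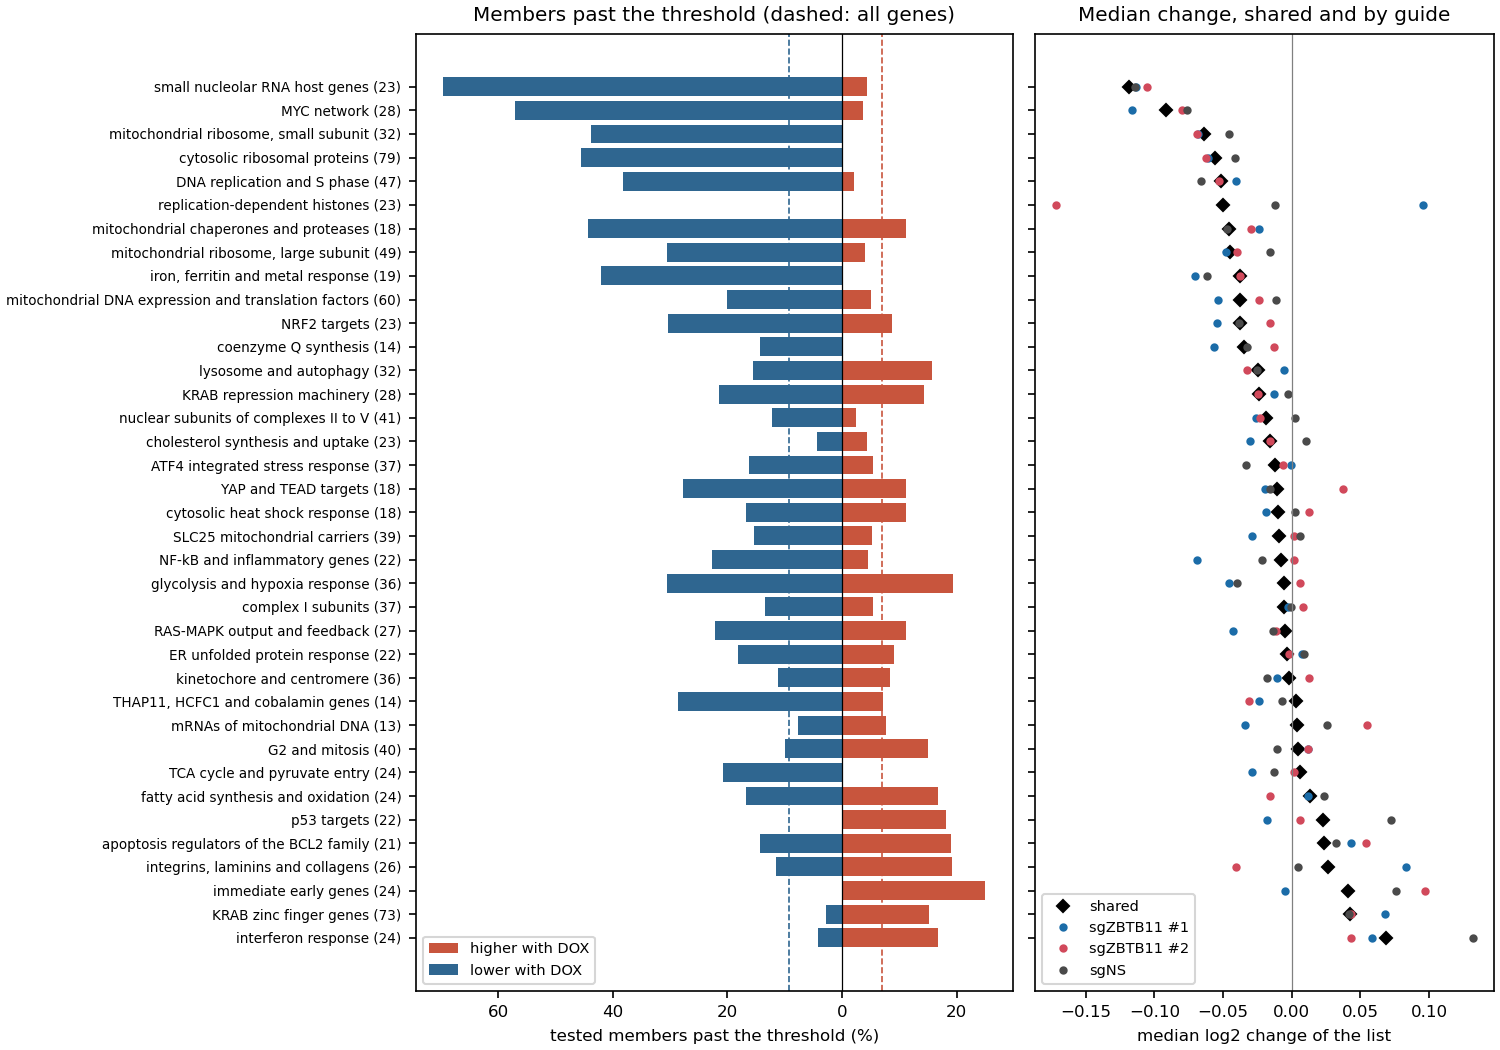
Left, the percentage of tested members of each gene list past the threshold with DOX at day 1, higher to the right and lower to the left, with dashed lines at the 6.98% and 9.21% of all genes; the number of tested members is in brackets. Right, the median log2 change of each list, shared (diamonds) and by guide (circles); host genes of small nucleolar RNAs and the MYC list lie lowest, at −0.12 and −0.09.

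GC content of the transcripts moved with these changes. Across 10805 genes the shared log2 change fell with GC content (Pearson −0.389, Spearman −0.445, a description across genes that share the same libraries), while transcript length showed little relation (0.064 and 0.057). Of 1399 genes with at most 40% GC, 241 rose and 15 fell, and of 2516 with over 60% GC, 52 rose and 517 fell. The slope of log2 level on GC was lower in every DOX than in every DMSO library with sgZBTB11 #1 and with sgZBTB11 #2, and overlapped with sgNS. The steepest slope, 0.106 on the log2 scale per 10 percentage points, was that of sgZBTB11 #2 DMSO replicate 2.

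With each library's GC and length trend removed, 2118 genes passed, 895 higher (5.5% of genes tested) and 1223 lower (7.51%). Of these, 1724 were called with the same sign in the main test (65.4% of the main calls). Counts of the larger groups changed little: 17 fell in the MYC list, 15 host genes, 31 ribosomal proteins, 14 and 14 mitochondrial ribosome genes of the large and small subunits, and 17 replication genes. Among the lists described here, others moved by more than 1.5 times. The KRAB repression list went from 6 lower to 3, the NF-kB list from 5 lower to 3, and G2 and mitosis from 6 higher and 4 lower to 1 and 7. Not past that mark, the immediate early list went from 6 higher to 9 (median from 0.04 to 0.09) and KRAB zinc finger genes from 11 higher to 8. Where few members had passed, complex I went from 2 higher to 4, NRF2 targets lost their 2 higher calls and the NF-kB list its 1, the large mitochondrial ribosome subunit went from 2 higher to 1, and the MYC list and complexes II to V went from 1 higher to 2, while mRNAs of mitochondrial DNA went from 1 lower to 2. Of 177 named genes with a shared call, 158 kept it with the trend removed and 19 lost it. All 30 of the largest increases and decreases kept theirs, with CENPT at 1.63 and THAP11 at −0.92 on the log2 scale.

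**Figure D4:**
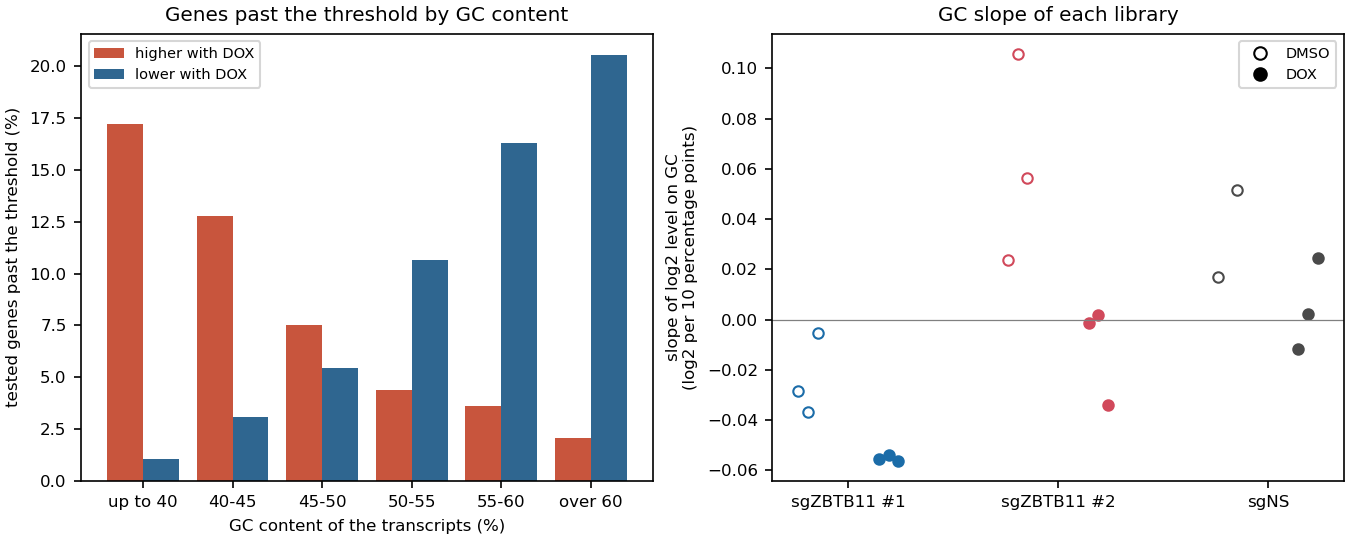
Left, the percentage of tested genes that rose (red) or fell (blue) with DOX at day 1, by GC content of their transcripts; the share that rose declines and the share that fell climbs from the first bin to the last. Right, the slope of log2 level on GC for each library (open circles DMSO, filled circles DOX), with sgZBTB11 #2 DMSO replicate 2 highest at 0.106.

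Taken guide by guide, DOX passed the threshold for 787 genes with sgZBTB11 #1 (4.84%), for 1282 with sgZBTB11 #2 (7.88%) and for 356 with sgNS (2.19%). In each of the 3 guides separately, 31 genes were higher (0.19%) and 113 lower (0.694%). Across 11081 genes the changes in 2 guides, which share no library, were correlated. Pearson r was 0.485 for the 2 ZBTB11 guides, and 0.387 and 0.439 for each of them with sgNS. The trend in GC content was not removed for these values, and its part in them was not tested. The sizes of these 3 lists do not show that guides differ, and the test of a difference found few genes.

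A test of DOX by guide with 2 degrees of freedom passed for 32 genes (0.197%), against 1339 at an unadjusted p under 0.05, and 10 of the 32 also had a shared change. One guide against the mean of the other 2 passed for 27 genes with sgZBTB11 #1 (0.166%), 3 with sgZBTB11 #2 (0.0184%) and 12 with sgNS (0.0737%). These counts depended on single libraries: the count of 32 became 149 without sgZBTB11 #2 DMSO replicate 1, and the count of 3 ran from 0 to 132.

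ZBTB11, the target of both ZBTB11 guides, differed by guide at day 1. It read 49.9, 52.9 and 47.4 CPM in DMSO and 42.7, 40.7 and 40.7 CPM in DOX with sgZBTB11 #1, and 51.4, 43.3 and 45.7 against 31.8, 30.4 and 31.1 CPM with sgZBTB11 #2. With sgNS it read 53.4 and 53.4 CPM in DMSO and 48.1, 50.6 and 49.2 CPM in DOX. The log2 change was −0.28 (SE 0.053), −0.59 (SE 0.057) and −0.11 (SE 0.059), with an adjusted p by guide of 0.00409 by edgeR. The fall was deepest with sgZBTB11 #2, whose departure from the other 2 guides was −0.40 (adjusted p = 0.0105). The shared value was −0.33.

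MCM4, a subunit of the replicative helicase, gave the smallest p by guide. It read 322, 321 and 316 CPM in DMSO and 241, 235 and 248 CPM in DOX with sgZBTB11 #1, and 313, 318 and 311 against 274, 276 and 277 CPM with sgZBTB11 #2. With sgNS it read 261 and 254 CPM in DMSO and 265, 254 and 256 CPM in DOX. DOX libraries lay below DMSO libraries in both ZBTB11 guides and among them in sgNS (log2 −0.41, −0.19 and 0.01, adjusted p by guide 2.04e-07). The sgNS libraries without DOX already stood lower than those of the ZBTB11 guides. MCM4 also passed the shared test (log2 −0.21, adjusted p = 0.00631 by edgeR), so a shared call need not hold in sgNS.

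For several genes sgNS and sgZBTB11 #1 went opposite ways. ID1, an inhibitor of basic helix-loop-helix factors, changed by −0.10, 0.05 and 0.24 on the log2 scale in sgZBTB11 #1, sgZBTB11 #2 and sgNS. KIAA1143 changed by −0.28, −0.04 and 0.26, and JUNB, an AP-1 factor, by −0.07, 0.00 and 0.23. The AP-1 factor FOS changed by −0.07, 0.17 and 0.16. ID1, KIAA1143, JUNB and FOS had no shared change that passed the threshold.

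Other departures came from single lines. VMP1, an autophagy protein of the endoplasmic reticulum, rose with sgZBTB11 #1, from 261, 250 and 257 CPM to 301, 290 and 288 CPM, and changed by −0.01 and −0.07 elsewhere. Its DMSO level in sgZBTB11 #1 was below that of all other groups, none of which lay under 288 CPM. KRT15 fell with sgZBTB11 #1 (−0.37) and sgZBTB11 #2 (−0.42) and changed by −0.10 in sgNS. TMED5, a cargo receptor of the secretory pathway, rose with sgZBTB11 #2 (0.27) and changed by −0.08 and −0.03 elsewhere, and ENSG00000269242 changed by −0.39, −0.78 and 0.52. Even CENPT, which rose in every line, differed in size: the log2 change was 1.76 with sgZBTB11 #1, 1.58 with sgZBTB11 #2 and 1.40 with sgNS (adjusted p by guide 0.00409).

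The same contrast was fitted at each other time. DOX passed the threshold for 1007 of 15623 genes at 5 hr (6.45%), 412 of 16645 at day 3 (2.48%) and 64 of 16809 at day 5 (0.381%). Of the day 1 calls, 309 were called with the same sign and 18 with the opposite sign at 5 hr, 221 and 6 at day 3, and 33 and 4 at day 5, and 2113 were called at no other time. Calls at the other times do not test a difference. In 1 fit of all 70 libraries the DOX effect at day 1 differed from that at 5 hr for 834 of 18061 genes (4.62%), at day 3 for 150 (0.831%) and at day 5 for 334 (1.85%). The count of 1007 genes called at 5 hr itself was unstable, between 278 and 2155 when 1 library of that time was left out. The count of 834 ran from 682 to 857 with 1 library of day 1 left out.

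Of the genes called at day 1, 10 were called with the same sign at all 4 times. These were CENPT and SLC25A36, which rose, and CDH5, TM4SF18, GINS4, SLCO4A1, KCNN4, TRIB2, HES1 and ENSG00000232110, which fell. CENPT changed by 1.36, 1.60, 0.70 and 0.46 on the log2 scale at 5 hr and days 1, 3 and 5, and SLC25A36 by 0.50, 0.72, 0.46 and 0.32. THAP11 changed by −1.12 and −0.95 at 5 hr and day 1 and by −0.22 and −0.17 later. CENPT and THAP11 had thus moved by 5 hr, and their day 1 effects did not pass the threshold for a difference from 5 hr (adjusted p = 0.19 and 0.24 by edgeR) but did so for a difference from day 3.

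Others of the leading genes had not changed detectably at 5 hr. FBXL19-AS1 changed by −0.07, 1.08, 0.48 and 0.19 over the 4 times, UBXN8 by −0.05, 0.87, 0.20 and 0.09, and ENSG00000233461 by −0.25, 1.05, 0.36 and 0.21. TRMT10A changed by 0.19, 0.80, 0.15 and 0.10, and SGF29 by 0.01, −0.52, −0.08 and −0.19. All 5 differed between day 1 and 5 hr in the joint fit, and all 5 had smaller changes at day 3 than at day 1. Over the 15 largest increases the median change went from 0.05 (5 hr) to 0.53 (day 1), 0.18 (day 3) and 0.12 (day 5), and over the 15 largest decreases −0.10, −0.38, −0.16 and −0.11. These sets were chosen at day 1, so their smaller medians at other times are a description only.

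**Figure D5:**
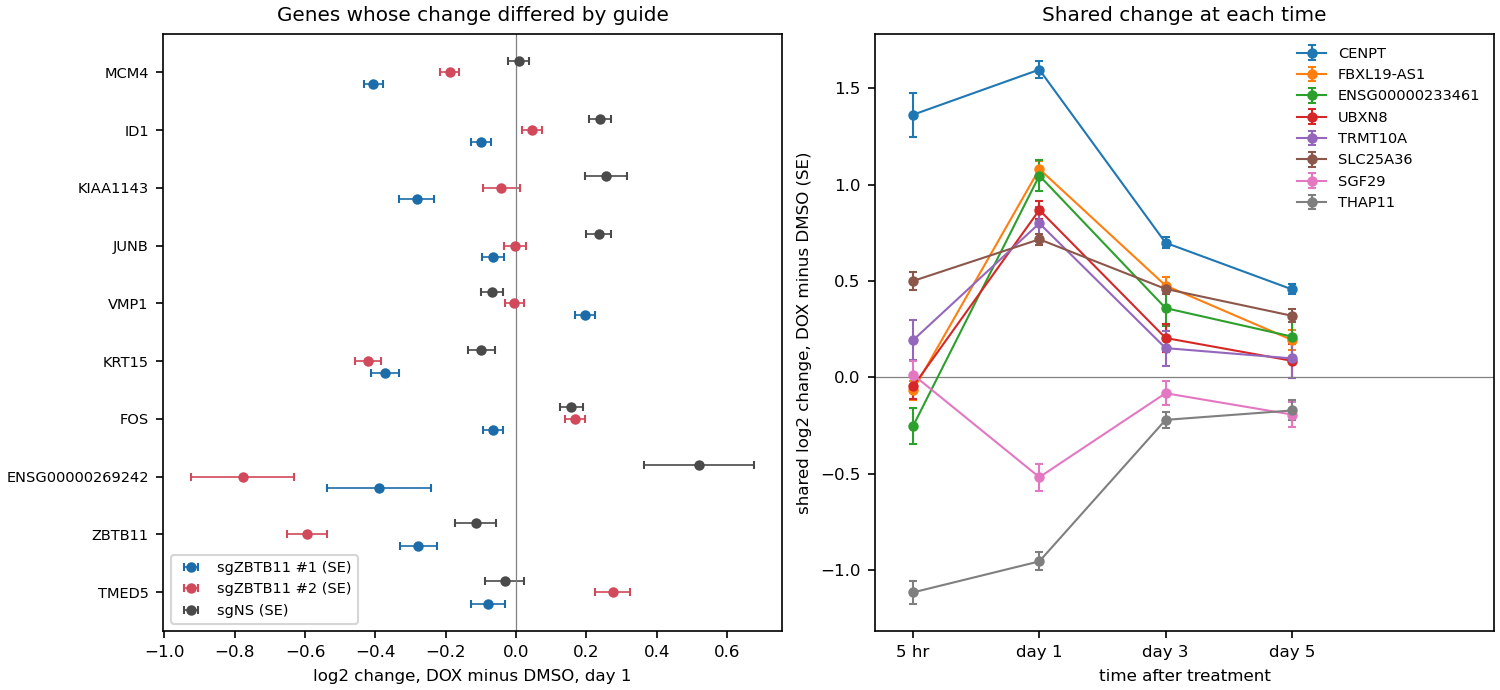
Left, log2 change (DOX minus DMSO, day 1) in each guide, with SE, of 10 genes whose change differed by guide; MCM4 and ZBTB11 fell in the ZBTB11 guides, and ID1, JUNB and KIAA1143 rose in sgNS. Right, the shared log2 change with SE of 8 genes at the 4 times, spaced evenly and not to scale; CENPT and THAP11 are already far from 0 at 5 hr, while FBXL19-AS1, UBXN8, TRMT10A, ENSG00000233461 and SGF29 depart at day 1.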

How the data were processed

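The authors deposited RSEM expected counts per gene (estimated counts, not whole) and a TPM table, per the submitters' processing notes on GRCh38.p14. For the aligner, annotation, strand setting and RSEM version: not given in the sources used here; 0 columns belonged to other samples. Counts were rounded (5.13% of values were not whole) and 32891 of 78932 genes with no count dropped out. The 17 day 1 libraries were fitted in edgeR 4.0.16 (R 4.3.3) with filterByExpr, TMM and the robust quasi-likelihood test, with guide as covariate and no block, and Benjamini-Hochberg adjustment at 0.05. Guide contrasts came from a fit of 6 group means, times from 1 fit each and their differences from 1 fit of 70 libraries. The alternatives used RLE, other filters, limma 3.58.1 on log2 TPM, DESeq2 1.42.0, removal of a length and GC trend (92.4% of tested genes had values, from GENCODE 29), left-out guides and left-out libraries. A minimum change of 0.1 and list counts without 1 library were added after seeing the data. Scripts were tested on simulated data. Coordinates and promoters are RefSeq's on GRCh38.p14, matched by symbol for 41047 genes.

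The genes named were the 15 largest increases and decreases past the threshold with a mean of at least 5 CPM and 1 sign in all guides, the smallest adjusted p of the guide tests, the largest differences from day 3, and up to 4 members of each list. EGR4, NR4A1, CD320, FBXL19 and the genes called at all times fall outside that rule and were named after their values were seen. Members and lists were chosen with earlier results of these data known.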

Additional observations from a re-analysis of the deposited data

Results flagged for a closer look

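The change with DOX at day 1 differed among the 3 guides for these genes, with adjusted p by edgeR's test of DOX by guide: MCM4 2.04e-07, ID1 6.08e-05, KIAA1143 0.000875, VMP1 0.000917, JUNB 0.000917, KRT15 0.00251, FOS 0.00263, ENSG00000269242 0.00322, CENPT 0.00409, ZBTB11 0.00409 and TMED5 0.0174. The guide with the clearest departure was sgZBTB11 #1 for MCM4, KIAA1143, VMP1, FOS and CENPT, sgNS for ID1, JUNB, KRT15 and ENSG00000269242, and sgZBTB11 #2 for ZBTB11 and TMED5, by the smallest adjusted p of 1 guide against the other 2. Some calls rested on sgNS with DMSO, which has 2 libraries. JUNB (adjusted p = 0.108) and ENSG00000269242 (0.111) missed the threshold without its replicate 1, and KRT15 (0.0552) without its replicate 2. TMED5 missed it in 6 of the leave-one-out fits, with an adjusted p of up to 0.0656.

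The shared change also differed between times. Day 1 exceeded day 3 by a log2 difference of 0.876 for CENPT, 0.669 for ENSG00000233461, 0.645 for UBXN8, 0.644 for SLITRK5 and 0.628 for TRMT10A. Day 1 lay below day 3 by a log2 difference of −0.755 for THAP11, −0.525 for PEMT, −0.455 for SGF29, −0.413 for SHB and −0.392 for EOMES. Against 5 hr the day 1 change differed by 1.29 for ENSG00000233461, 1.14 for FBXL19-AS1, 0.908 for UBXN8, 0.6 for TRMT10A and −0.538 for SGF29. PEMT, an enzyme of phosphatidylcholine synthesis, fell at day 1 (−0.22) and rose at day 3 (0.29). SLITRK5, a neuronal membrane protein, was at 0 in every library of sgZBTB11 #1 and sgNS at day 1 and read at most 32.8 CPM with DMSO and 37.7 CPM with DOX in sgZBTB11 #2, so its shared value comes from that line alone. The SHB difference missed the threshold in 3 alternatives: without a filter on low counts (adjusted p = 0.0779) and without sgNS DMSO replicate 1 (0.0542) or replicate 2 (0.0639).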

How the results depend on the processing

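No named gene changed direction with a call, in the shared test or in its difference from day 3, under any alternative. Counts and list medians have no such test. Some list medians changed sign, such as KRAB repression machinery from −0.024 to 0.026 with limma on log2 TPM plus 1. The shared count of 2635 was 1609 in 1 fit of all 70 libraries (23.56% of them higher against 43.11%), 267 against a minimum log2 change of 0.1, 1320 and 1339 with limma on log2 TPM plus 1 or plus 0.1, 1402 without guide sgZBTB11 #1 and 1590 without sgZBTB11 #2 (34.4% higher). DOX by guide (32) became 130 without a filter on low counts and 61 with DESeq2, and the departures of sgZBTB11 #1, sgZBTB11 #2 and sgNS became 67, 50 and 27 without that filter. With the GC and length trend removed, sgZBTB11 #2 alone gave 661 calls and day 5 gave 120. Without a filter, 5 hr gave 2322, day 5 gave 180 and the difference from day 3 gave 260. The cause was not tested.

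With 1 library left out in turn the shared count ran from 2156 to 2745, DOX by guide from 15 to 149, and the counts within sgZBTB11 #1, sgZBTB11 #2 and sgNS from 420 to 1073, 599 to 1965 and 103 to 505. Their departures ran from 10 to 70, 0 to 132 and 6 to 24. Counts at 5 hr, day 3 and day 5 ran from 278 to 2155, 313 to 468 and 42 to 56, and the differences of day 1 from them from 682 to 857, 70 to 148 and 224 to 348. The share of counts of ribosomal protein genes differed by −0.239 to −0.119 percentage points, of mitochondrial genes by 0.130 to 0.214 and of histone genes by −0.000173 to −4.74e-05. A replicate block gave 2536 shared calls. In their deviations from group means, same-numbered DMSO and DOX libraries correlated at −0.127 to 0.306 and differently numbered ones at −0.275 to 0.244. Deviations from means of 2 or 3 libraries must offset one another, so these values cannot show whether the numbers pair the libraries. Of 177 named genes with a shared call, 102 kept it with the same sign under every alternative.

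List medians (log2) that moved with the trend removed were 0.0047 for apoptosis regulators of the BCL2 family, 0.0071 for ATF4 integrated stress response, −0.0096 for ER unfolded protein response, −0.021 for G2 and mitosis, −0.075 for genes near CENPT, −0.022 for kinetochore and centromere, 0.00079 for NRF2 targets and −0.016 for TCA cycle and pyruvate entry. With limma on log2 TPM plus 1, where the median of all genes was 0.029 against 0.005, they were 0.087 for apoptosis regulators of the BCL2 family, 0.017 for ATF4 integrated stress response, 0.019 for cholesterol synthesis and uptake, 0.0022 for coenzyme Q synthesis, 0.026 for complex I subunits, 0.031 for cytosolic heat shock response, −0.029 for cytosolic ribosomal proteins, −0.023 for DNA replication and S phase, 0.0202 for ER unfolded protein response, 0.051 for fatty acid synthesis and oxidation, 0.032 for G2 and mitosis, −0.035 for genes near CENPT, 0.032 for kinetochore and centromere, 0.026 for KRAB repression machinery, 0.074 for KRAB zinc finger genes, 0.016 for lysosome and autophagy, 0.016 for matrix metalloproteases and inhibitors, −0.0029 for mitochondrial chaperones and proteases, 0.0052 for mitochondrial DNA expression and translation factors, −0.013 for mitochondrial ribosome, large subunit, −0.0085 for mitochondrial ribosome, small subunit, 0.017 for NRF2 targets, 0.012 for nuclear subunits of complexes II to V, 0.024 for RAS-MAPK output and feedback, −0.093 for small nucleolar RNA host genes, 0.024 for THAP11, HCFC1 and cobalamin genes and 0.0304 for YAP and TEAD targets.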
